A study of Homo sapiens with 12 samples.

Results

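The 45 genes described here act in G2, the gap before cell division, and in mitosis. They form a list of mitotic kinases and cyclins, kinesins, kinetochore and checkpoint proteins, anaphase factors, cytokinesis factors, spindle proteins and regulators. The list was set by role, but with earlier results of these data known, so it is not independent of them. A probe counted if its detection p-value was under 0.01 on at least 2 of the 12 arrays. Of 68 probes assigned to these genes, 64 passed, and all 45 genes kept at least 1 probe, among 11238 genes tested in all. The probe with the highest mean signal stands for a gene, and each of these 45 probes was detected on 12 of 12 arrays.

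LNCaP is an androgen-responsive human prostate carcinoma line. The cells received a pre-miR precursor for the microRNA miR-135b, or the scrambled pre-miR negative control #1, at 20 nM in either case, and total RNA was taken 12, 24 or 36 h later and measured on Illumina expression arrays. Treatment and time made 6 groups of 2 arrays, called biological repeats 1 and 2 in the labels, and that number limits the precision of every value. All groups went through a transfection, and no untransfected cells were compared. The labels do not say which arm of the miR-135b precursor was meant to act.

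Genes of this kind are switched on late in the cell cycle. They are held off in resting cells by the DREAM complex and driven in G2 by the MuvB core with B-MYB and FOXM1. These complexes act through the CHR element of the promoters, and many of the promoters also hold CCAAT boxes. CDK1 with its cyclins starts mitosis, kinesins and kinetochores move and attach the chromosomes, and the anaphase-promoting complex ends mitosis before cytokinesis separates the daughters. Their summed mRNA is widely read as a measure of proliferation in prostate tumours. In RNA from whole cultures, fewer cells in G2 or mitosis and less mRNA in each such cell cannot be told apart.

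Both mature arms of the transfected microRNA are shown because they are the agent under test. The capitals mark the seed, bases 2 to 8, which pairs with target mRNAs. The sequences are from RefSeq on GRCh38.p14, where the 5p arm lies at chr1:205448361-205448383 and the 3p arm at chr1:205448323-205448344, both on the minus strand.
hsa-miR-135b-5p: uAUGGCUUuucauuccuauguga
hsa-miR-135b-3p: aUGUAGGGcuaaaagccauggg
The arms have different seeds, and no search for their sites in the mRNAs of the 45 genes was made here.

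In miR-135b cells the median of the 45 genes lay close to the control at 12 h and 24 h and below it at 36 h. The median fitted change, the log2 signal in miR-135b cells minus that in control cells, was 0.03 at 12 h, -0.06 at 24 h and -0.33 at 36 h. The last value is 1.25-fold lower. Single genes ranged from -0.39 to 0.29 at 12 h and from -0.78 to 0.25 at 24 h. Over all genes tested the medians were -0.01, 0.01 and 0.01. At 36 h 44 of the 45 genes were below 0, or 97.8%, against 48.1% of all genes. The exception was NUF2, a kinetochore subunit, at 0.02, and its second kept probe read -0.36. The largest size of change was that of KIF23, at -0.90.

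**Figure D1:**
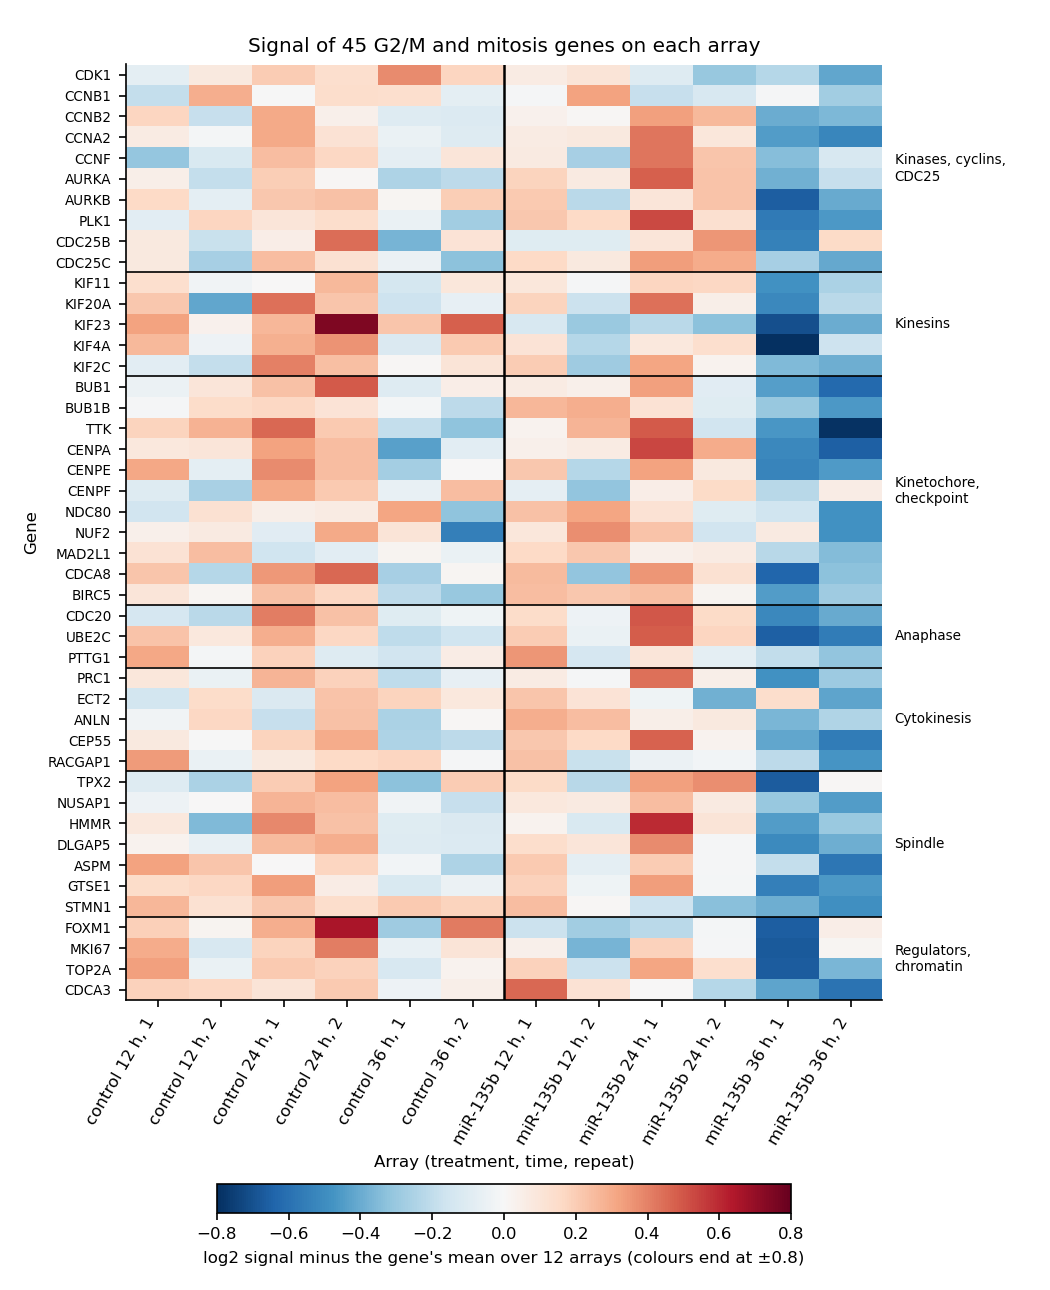
Log2 signal of each of the 45 genes on each of the 12 arrays, minus the gene's mean over the 12 arrays, with genes in rows by role and arrays in columns by treatment, time and repeat. Both miR-135b 36 h columns are blue for most genes, while the control 36 h columns are pale, with medians of -0.10 and -0.04 against -0.44 and -0.40.

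Few single genes passed the threshold with 2 arrays a group. In limma's fit of 6 group means, with Benjamini-Hochberg adjustment over the 11238 genes and 0.05 as the limit, 1 of the 45 fell at 36 h, where 0.89% of all genes fell, and none rose, where 0.872% of all genes rose. Within a time the arrays of 1 repeat number deviated together, so a second fit with the repeat number as a block within each time is given beside it and called the paired fit. It called 6 of the 45 lower at 36 h, against 3.14% of all genes, and 0 higher, against 2.57%. At an unadjusted p under 0.05, 17 of the 45 were lower and 0 higher at 36 h, where 7.25% of all genes were lower. Both miR-135b arrays lay below both control arrays for 31 of the 45 genes at 36 h, or 68.9%, against 19.1% of all genes, and above them for 0, against 20.1%.

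The repeats gave like medians at 36 h. The median difference within pairs of 1 repeat number was -0.34 in repeat 1 and -0.34 in repeat 2, with 45 and 41 of the 45 genes below 0. Some single genes differed between repeats, as CENPA did at -0.08 and -0.57, and others lay close, as CDK1 did at -0.61 and -0.59. At 24 h the repeats disagreed, with a median of 0.04 in repeat 1 and -0.17 in repeat 2, and 15 and 36 genes below 0. At 12 h the medians were 0.04 and -0.01. For 6 of the 45 genes the treated array was the lower in 6 of 6 pairs, against 8.76% of all genes. These were KIF23, KIF4A, CENPE, RACGAP1, STMN1 and FOXM1.

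**Figure D2:**
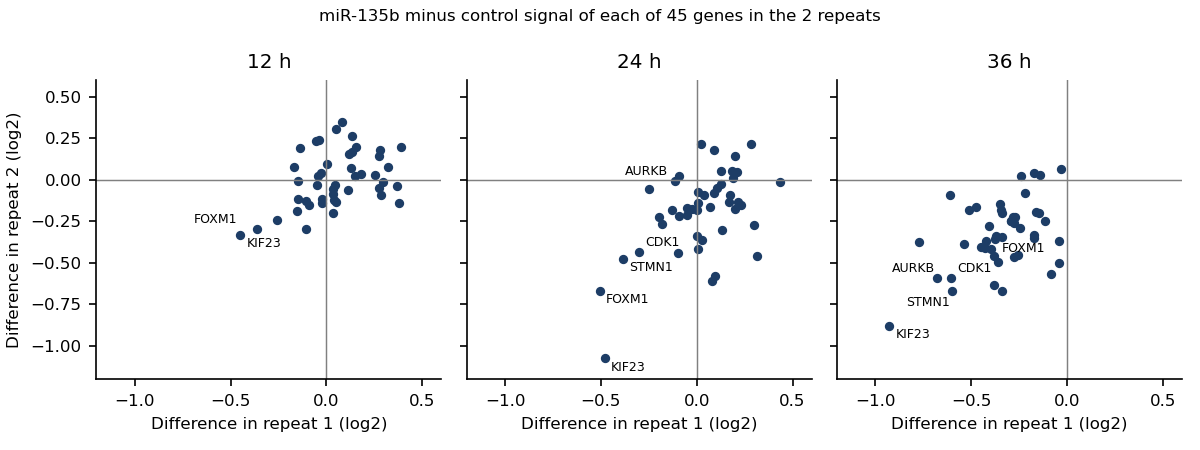
Each point is 1 of the 45 genes, with its miR-135b minus control difference in log2 signal in repeat 1 on the x axis and in repeat 2 on the y axis, at 12, 24 and 36 h. The points scatter around 0 at 12 h, shift apart by repeat at 24 h, and at 36 h lie in the lower left quadrant for 41 of 45 genes.

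The array medians of the 45 genes, each gene centred on its mean over 12 arrays, were 0.09 and -0.01 in control cells at 12 h, 0.23 and 0.21 at 24 h, and -0.10 and -0.04 at 36 h. In miR-135b cells they were 0.16 and -0.01 at 12 h, 0.25 and 0.05 at 24 h, and -0.44 and -0.40 at 36 h. Both treatments thus reached their highest median at 24 h, and the 36 h arrays of miR-135b cells stood lowest of the 12. From 12 to 36 h the median change of the 45 genes was -0.46 in miR-135b cells and -0.09 in control cells, beside 0.00 and -0.01 for all genes.

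Within miR-135b cells 44 of the 45 genes were lower at 36 h than at 12 h, all but CENPF at 0.11. Of these, 1 passed the threshold in limma's fit, against 0.587% of all genes called lower, while 0 were called higher, against 0.667%, and 28 had an unadjusted p under 0.05 and were lower, against 8.82% of all genes. In control cells 34 genes were lower at 36 h, none passed the threshold, where 0.0178% of all genes were called lower, and 5 had an unadjusted p under 0.05 and were lower, against 7.2%. These changes and those between treatments share arrays. The effect of miR-135b was lower at 36 h than at 12 h for 45 of 45 genes, with a median difference of -0.35. None of these differences, and none of any other gene tested (0% in each direction, in both fits), passed the threshold in limma's fit, with adjusted p from 0.803 to 0.997 and from 0.224 to 0.967 in the paired fit. In that comparison 9 genes had an unadjusted p under 0.05, all lower, against 2.67% of all genes, so a change of the effect with time is not established for any single gene.

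**Figure D3:**
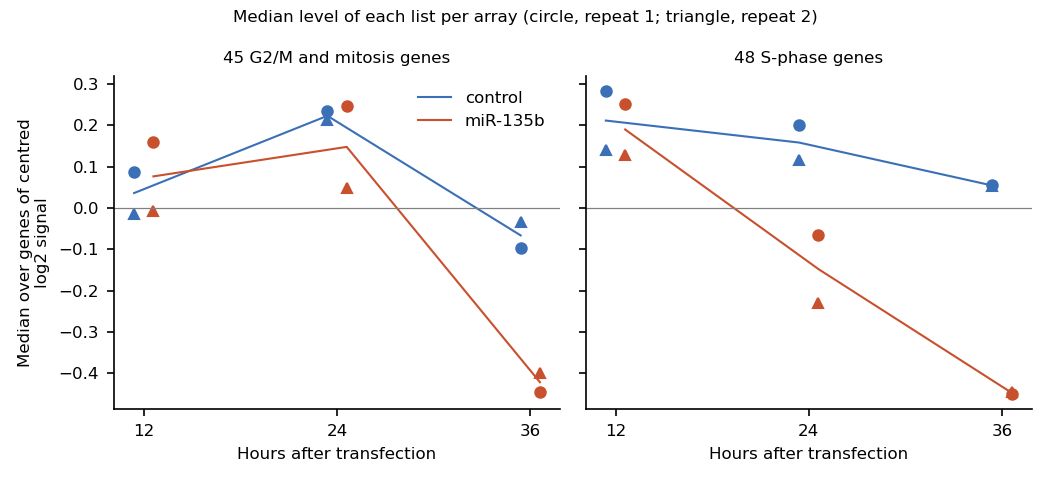
Median over genes of the log2 signal centred per gene, by hours after transfection, for the 45 G2/M and mitosis genes and for 48 S-phase genes, with circles for repeat 1, triangles for repeat 2 and lines through the means of control (blue) and miR-135b (red) arrays. The S-phase genes are already apart at 24 h, and the G2/M genes at 36 h.

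Promoters were read because the 45 genes lay on 1 side together at 36 h. RefSeq promoters on GRCh38.p14, 250 bases before to 50 after the gene start, were held for 38 of the 45 genes. Both strands were searched for the CHR element, written TTTGAA or TTCGAA, and for the CCAAT box. A CHR was found in 28 of 38 promoters, or 73.7%, against 16.4% of all 35116 promoters, and a CCAAT box in 30, or 78.9%, against 34.6%. Both stood in 24 of them, or 63.2%, against 6.38%. The median 36 h change was -0.32 with a CHR and -0.30 without it, and was -0.34 with a CCAAT box and -0.23 without. An E2F site, searched as TTTCCCGC, TTTGGCGC, TTTCGCGC or TTTGCCGC, was found in 4 promoters, or 10.5%, against 3.31% of all, with medians of -0.46 with it and -0.30 without. These differences were not tested. Genes of this kind are regulated through CHR and CCAAT elements, so these shares describe the list and not its 36 h change. The 35116 promoters were not limited to the genes tested. KIF23 and STMN1 are shown because they passed the threshold between treatments in limma's fit. CDK1 and CCNB2 are shown as a mitotic kinase and its cyclin B2 partner, and neither passed in that fit. The CHR of CCNB2 follows 4 CCAAT boxes. Capitals mark the CHR and the CCAAT boxes, which read ATTGG on the other strand. The windows are chr15:69414099-69414398 (plus strand) for KIF23, chr1:25906370-25906669 (minus) for STMN1, chr10:60778081-60778380 (plus) for CDK1 and chr15:59104896-59105195 (plus) for CCNB2.
KIF23: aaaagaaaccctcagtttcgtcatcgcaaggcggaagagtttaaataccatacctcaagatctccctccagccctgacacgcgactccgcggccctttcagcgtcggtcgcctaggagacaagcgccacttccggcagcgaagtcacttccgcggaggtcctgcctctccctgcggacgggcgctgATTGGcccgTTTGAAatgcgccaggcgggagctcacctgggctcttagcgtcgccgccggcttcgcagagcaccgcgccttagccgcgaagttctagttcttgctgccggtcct
STMN1: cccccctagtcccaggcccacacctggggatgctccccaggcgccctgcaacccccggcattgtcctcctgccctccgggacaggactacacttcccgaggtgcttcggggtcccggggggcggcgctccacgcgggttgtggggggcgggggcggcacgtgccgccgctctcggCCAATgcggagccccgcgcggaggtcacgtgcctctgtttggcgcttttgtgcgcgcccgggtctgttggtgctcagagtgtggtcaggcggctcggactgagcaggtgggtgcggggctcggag
CDK1: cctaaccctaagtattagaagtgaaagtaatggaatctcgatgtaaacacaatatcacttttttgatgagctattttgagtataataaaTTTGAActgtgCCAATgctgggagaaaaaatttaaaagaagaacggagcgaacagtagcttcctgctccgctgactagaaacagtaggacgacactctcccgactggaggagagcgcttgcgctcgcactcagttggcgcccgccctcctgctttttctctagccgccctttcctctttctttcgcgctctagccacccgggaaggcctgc
CCNB2: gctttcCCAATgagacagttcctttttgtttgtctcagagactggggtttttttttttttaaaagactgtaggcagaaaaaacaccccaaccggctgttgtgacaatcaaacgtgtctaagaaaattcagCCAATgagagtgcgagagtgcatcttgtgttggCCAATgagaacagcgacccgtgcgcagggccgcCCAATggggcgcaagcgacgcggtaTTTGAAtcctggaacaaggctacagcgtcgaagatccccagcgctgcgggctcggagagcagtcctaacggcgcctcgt
Counted from the gene start, the CHR began at -55 in KIF23, at -161 in CDK1 and at -29 in CCNB2. The STMN1 window held a CCAAT box at -75 and neither spelling of the CHR. A match is a string of letters and no evidence of binding.

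Among the kinases, cyclins and CDC25 phosphatases, 10 of 10 genes were below 0 at 36 h, with a median of -0.26. None passed in limma's fit, where 0.89% of all genes fell and 0.872% rose. The paired fit called 2 lower, against 3.14% of all genes. CDK1 is the kinase that starts mitosis. Its log2 signal in control cells was 11.54 and 11.70 at 12 h, 11.82 and 11.76 at 24 h, and 12.00 and 11.80 at 36 h. In miR-135b cells it was 11.69 and 11.72, then 11.52 and 11.32, then 11.39 and 11.21. The treatments overlapped at 12 h and were apart at 24 h and 36 h. At 36 h the change was -0.60 ± 0.14 (SE), with limma's adjusted p of 0.0665, and 0.0234 in the paired fit, which also called the mean of 3 times, -0.29, at 0.0223, where limma's fit gave 0.0708. A second CDK1 probe read -0.66.

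AURKB, the kinase of the chromosomal passenger complex, gave 10.62 and 10.38 in control cells at 12 h, 10.67 and 10.70 at 24 h, and 10.47 and 10.65 at 36 h, against 10.67 and 10.25, 10.56 and 10.69, and 9.80 and 10.06 in miR-135b cells. Only the 36 h arrays of miR-135b cells stood apart from the other 10. That change was -0.64 ± 0.17 with an adjusted p of 0.118 in limma's fit and 0.0219 in the paired fit, and the mean of 3 times, -0.25, had 0.229 and 0.0431. The cyclins CDK1 works with moved less. CCNA2 was at -0.41, CCNB2 at -0.27 and CCNB1 at -0.17 at 36 h, none past the threshold in either fit. PLK1, which matures centrosomes and helps to activate CDK1, was at -0.35. AURKA, the spindle pole kinase, and CDC25B, which removes inhibitory phosphates from CDK1, were at -0.06 each. AURKA was above control in both miR-135b arrays at 12 h and at 24 h, where its change was 0.25.

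The 5 kinesins had a median of -0.43 at 36 h, and in 5 of 5 both miR-135b arrays lay below both control arrays, as they did in 19.1% of all genes. None passed in limma's fit at 36 h, and KIF23 and KIF4A did in the paired fit, which called 3.14% of all genes lower. KIF23 is the motor of centralspindlin, which organises the midzone for cytokinesis. Its control signal was 8.78 and 8.50 at 12 h, 8.73 and 9.21 at 24 h, and 8.68 and 8.94 at 36 h. In miR-135b cells the signal was 8.33 and 8.17, 8.25 and 8.13, and 7.76 and 8.06. Every miR-135b array was below every control array, although the change at 12 h, -0.39 ± 0.19, did not pass, with limma's unadjusted p of 0.074.

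KIF23 fell by 0.69 ± 0.11 on the log2 scale as the mean of the 3 times, 1.61-fold, with limma's adjusted p of 0.0076 and lower in 6 of 6 pairs. Of the 45 genes 2 fell in that mean, against 2.81% of all genes, 7 in the paired fit, against 6.52%, and 0 rose in either, against 1.97% and 5.09%. At 36 h KIF23 was at -0.90 ± 0.19, with an adjusted p of 0.0555, and 0.0226 in the paired fit. At 24 h the change was -0.78 ± 0.19, with 0.125, and 0.0493 in the paired fit. A dimmer KIF23 probe, detected on 8 arrays, read -0.42 at 36 h. KIF4A, a chromokinesin that also works at the midzone, gave 8.43 and 8.75 in control cells and 7.65 and 8.37 in miR-135b cells at 36 h, and 1 miR-135b array, of repeat 1, stood far below the rest. Earlier its control signal was 8.80 and 8.50 at 12 h and 8.82 and 8.90 at 24 h, with 8.65 and 8.31, then 8.62 and 8.68, in miR-135b cells. The KIF4A change at 36 h was -0.57 ± 0.23, with limma's adjusted p of 0.318, and 0.0424 in the paired fit, and without the repeat 1 array of miR-135b cells at 36 h it was -0.21. Its mean of 3 times, -0.32, had 0.253 and, paired, 0.0315. KIF2C, a microtubule depolymerase, was at -0.43, KIF11, which pushes spindle poles apart, at -0.34, and KIF20A at -0.25. The KIF20A signal was 10.59 and 9.96, 10.81 and 10.59, and 10.21 and 10.31 in control cells at 12, 24 and 36 h, against 10.55 and 10.20, 10.81 and 10.41, and 9.86 and 10.16. Its repeats of control cells at 12 h lay further apart than the treatments at 36 h.

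**Figure D4:**
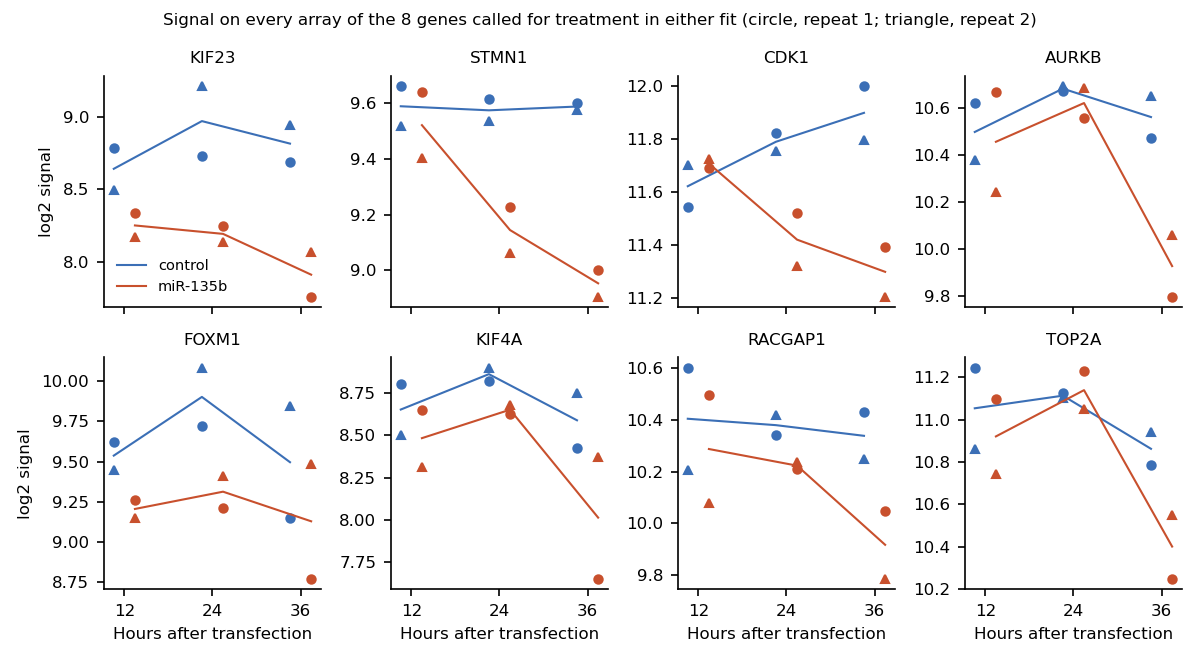
Log2 signal on every array of the 8 genes that passed the threshold between treatments in either fit, at 12, 24 and 36 h after transfection, with control in blue, miR-135b in red, circles for repeat 1, triangles for repeat 2 and lines through the means. The arrays of the 2 treatments do not overlap at any time for KIF23. For STMN1, CDK1, KIF4A and RACGAP1 they do not overlap at 24 h and 36 h. There is no overlap at 12 h and 24 h for FOXM1, and at 36 h for AURKB and TOP2A. Each panel has its own y axis.

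The 11 kinetochore and checkpoint genes had a median of -0.32 at 36 h, with 10 below 0 and 7 with both miR-135b arrays below both control arrays (19.1% of all genes). None passed in either fit. BUB1, a checkpoint kinase at kinetochores, had the largest of these changes. Its signal was 8.58 and 8.73, 8.86 and 9.12, and 8.53 and 8.68 in control cells at 12, 24 and 36 h, and 8.70 and 8.67, 8.96 and 8.54, and 8.19 and 8.01 in miR-135b cells. The groups overlapped at 12 h and 24 h and not at 36 h, where the change was -0.50 ± 0.17 with limma's adjusted p of 0.205. MAD2L1, which holds back anaphase until all kinetochores are attached, gave 11.35 and 11.48, 11.08 and 11.16, and 11.26 and 11.19 in control cells, against 11.40 and 11.45, 11.28 and 11.30, and 11.02 and 10.89. It was thus above control in both arrays at 24 h, at 0.17, and below it at 36 h, at -0.27, with neither past the threshold. TTK, the kinase at the head of the checkpoint, was at -0.37, the motor CENPE at -0.36, CDCA8 at -0.35, the centromere histone CENPA at -0.33 and NDC80 at -0.32. BUB1B was at -0.27, CENPF at -0.18 and BIRC5, also called survivin, at -0.11.

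The 3 anaphase genes had a median of -0.39 at 36 h, with no overlap of treatments in 3 of 3 (19.1% of all genes) and none past the threshold in either fit. UBE2C, the ubiquitin-conjugating enzyme of the anaphase-promoting complex, gave 12.52 and 12.38, 12.58 and 12.46, and 12.09 and 12.13 in control cells, against 12.49 and 12.24, 12.77 and 12.46, and 11.64 and 11.73 in miR-135b cells. CDC20, its mitotic activator, gave 12.41 and 12.33, 12.96 and 12.78, and 12.45 and 12.51, against 12.69 and 12.51, 13.05 and 12.70, and 12.03 and 12.15. The 36 h arrays of miR-135b cells were the lowest of the 12 for both genes, and CDC20 was above control in both arrays at 12 h. The changes at 36 h were -0.43 ± 0.15 for UBE2C, with limma's adjusted p of 0.227, and -0.39 ± 0.15 for CDC20, with 0.267. PTTG1, the securin that the complex destroys, was at -0.21.

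The 5 cytokinesis genes had a median of -0.26 at 36 h, 3 of them with no overlap (19.1% of all genes). RACGAP1, the partner of KIF23 in centralspindlin, gave 10.60 and 10.21, 10.34 and 10.42, and 10.43 and 10.25 in control cells, against 10.49 and 10.08, 10.21 and 10.24, and 10.05 and 9.79 in miR-135b cells. The treatments were apart at 24 h and 36 h. Its mean change over the 3 times was -0.23 ± 0.11, with limma's adjusted p of 0.293, and 0.0413 in the paired fit, which also gave 0.0525 for the -0.42 at 36 h. PRC1, which bundles the midzone microtubules, gave 11.47 and 11.33, 11.65 and 11.56, and 11.18 and 11.31, against 11.44 and 11.37, 11.82 and 11.43, and 10.89 and 11.08. It was apart at 36 h alone, at -0.26 ± 0.15, with an adjusted p of 0.553. ECT2, which activates RhoA at the midzone, was at -0.27, CEP55 at -0.26 and ANLN at -0.18.

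The 7 spindle and microtubule genes had a median of -0.27 at 36 h, and 5 showed no overlap (19.1% of all genes). STMN1, or stathmin, which destabilises microtubules outside as well as in mitosis, was the 1 gene of the 45 that passed at 36 h in limma's fit. Its control signal was 9.66 and 9.52, 9.61 and 9.54, and 9.60 and 9.58. In miR-135b cells it was 9.64 and 9.40 at 12 h, 9.23 and 9.06 at 24 h, and 9.00 and 8.90 at 36 h. The treatments overlapped at 12 h and did not at 24 h or 36 h. STMN1 fell by 0.64 ± 0.13 at 36 h, 1.55-fold, with an adjusted p of 0.0478, and 0.0191 in the paired fit, and in the mean of 3 times by 0.38 ± 0.08, with 0.0223. The call at 36 h was lost whichever of the 12 arrays was left out, with limma's adjusted p from 0.0585 to 0.249, and a second STMN1 probe read -0.23. The call in the mean was lost in 7 of the 12, at 0.0288 to 0.0751 over the 12, and also with median scaling (0.0501) and with the mean of the gene's probes (0.175). NUSAP1, which binds spindle microtubules, gave 11.37 and 11.42, 11.69 and 11.66, and 11.39 and 11.23 in control cells, against 11.50 and 11.49, 11.66 and 11.48, and 11.11 and 10.97. It was higher in both arrays at 12 h and lower in both at 24 h and 36 h, with -0.27 ± 0.12 and an adjusted p of 0.384 at 36 h. GTSE1 was at -0.42, DLGAP5 at -0.34, TPX2, which activates AURKA on the spindle, at -0.27, HMMR at -0.26 and ASPM at -0.25. A second HMMR probe read -0.02.

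The regulators and chromatin genes had a median of -0.41 at 36 h over 4 genes. FOXM1 is the transcription factor that drives many of the other genes listed. Its signal was 9.62 and 9.45, 9.72 and 10.08, and 9.15 and 9.84 in control cells, against 9.26 and 9.15, 9.21 and 9.41, and 8.77 and 9.49 in miR-135b cells. It was lower in each pair and without overlap at 12 h and 24 h, while at 36 h the repeats of both treatments lay far apart and the treatments overlapped. The mean change of FOXM1 was -0.43 ± 0.16, with limma's adjusted p of 0.177, and 0.00634 in the paired fit, which also called the -0.59 at 24 h, at 0.0376. At 24 h the paired fit called 2 of the 45 lower, against 1.54% of all genes, and limma's unpaired fit 0, against 0.489%. Neither called a gene of the 45 higher, against 1.17% and 0.32%. There 3 genes had an unadjusted p under 0.05 and were lower, against 5.86%.

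TOP2A, which untangles chromosomes, gave 11.25 and 10.86, 11.13 and 11.10, and 10.78 and 10.94 in control cells, against 11.10 and 10.74, 11.23 and 11.05, and 10.25 and 10.55 in miR-135b cells. It was apart at 36 h alone, at -0.46 ± 0.18, with limma's adjusted p of 0.298, and 0.0494 in the paired fit. CDCA3, a trigger of mitotic entry, gave 9.78 and 9.77, 9.70 and 9.81, and 9.56 and 9.64 in control cells, against 10.06 and 9.72, 9.60 and 9.37, and 9.17 and 9.01. The treatments were apart at 24 h and 36 h. Between treatments its change at 36 h was -0.51 ± 0.15, with limma's adjusted p of 0.153, and 0.0824 in the paired fit. Within miR-135b cells CDCA3 fell by 0.79 ± 0.15 from 12 to 36 h, with limma's adjusted p of 0.0448, and the call was lost whichever array was left out, at 0.0616 to 0.299. The change in control cells was -0.17 ± 0.15. MKI67, which codes for the proliferation antigen Ki-67, was at -0.35 at 36 h with overlap.

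**Figure D5:**
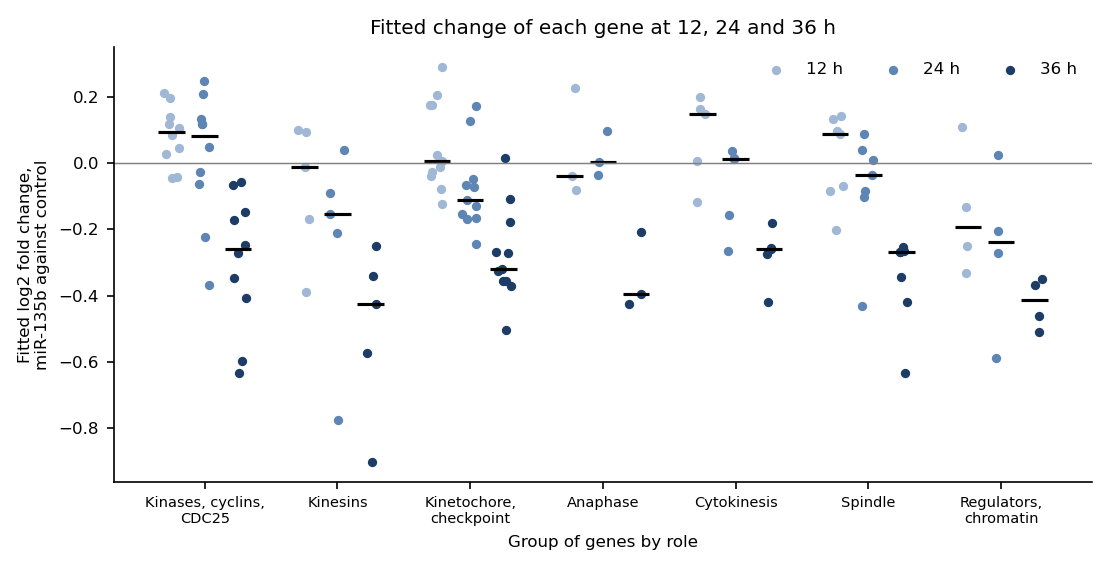
Fitted log2 fold change of miR-135b against control for each of the 45 genes, grouped by role, at 12, 24 and 36 h (pale to dark), with bars at the medians. The 36 h medians lie between -0.43 and -0.26 in the 7 groups, and the 24 h medians between -0.24 and 0.08.

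At 12 h no gene of the 45 passed in limma's fit or the paired fit, where 0.0267% and 0.0356% of all genes were called lower and 0.0089% higher in either. Of the 45, 0 had an unadjusted p under 0.05, against 2.75% lower and 2.22% higher. Both miR-135b arrays lay above both control arrays for 12 genes at 12 h, against 15.4% of all genes, and below for 4, against 17.6%. At 24 h these counts were 4 above, against 21.1%, and 10 below, against 20.7%. The 12 genes above at 12 h were CCNA2, AURKA, CDC25C, BUB1B, NDC80, NUF2, BIRC5, CDC20, ANLN, CEP55, NUSAP1 and DLGAP5.

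The genes varied together over the arrays to different degrees. The correlation of each gene with the mean of the other 44 over the 12 arrays, which share treatment and time, had a median of 0.815. It was highest for DLGAP5 at 0.969, UBE2C at 0.955, PRC1 at 0.939 and GTSE1 at 0.936, and lowest for CCNB1 at 0.0945, ECT2 at 0.161, NUF2 at 0.367 and CENPF at 0.379. These are descriptions of 12 arrays. The second kept probes, 19 in 18 genes, were below 0 at 36 h in 19 of 19, with a median of -0.33.

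Other G2/M genes, 125 measured of 134 listed, had a median of -0.30 at 36 h, with 107 below 0. In the paired fit 20 fell at 36 h, against 3.14% of all genes. In limma's fit 0 rose, against 0.872%, and 5 fell, against 0.89%. They were the kinetochore gene CENPQ at -1.09 ± 0.21 (adjusted p 0.0358), DEPDC1 at -1.03 ± 0.17 (0.0209), RBL1, the p107 subunit of DREAM, at -1.02 ± 0.17 (0.0218), the formin DIAPH3 at -0.998 ± 0.20 (0.0413) and the lamina gene TMPO at -0.90 ± 0.12 (0.0078). The mean of 3 times added SPC25 at -0.32, SMC4 at -0.30 and HAUS1 at -0.34 to these. That made 8 lower, against 2.81% of all genes, and 0 higher, against 1.97%. In the mean the paired fit called 29 lower, against 6.52% of all genes, and 1 higher, the kinesin gene KIF24 at 0.27, against 5.09%. At 24 h it called 4 lower, against 1.54%, and limma's fit called 1, against 0.489%. By role, the 36 h median was -0.35 for 35 other kinetochore and centromere genes and -0.27 for 16 condensin and cohesin genes. For other kinases and cyclins (16) it was -0.39, for kinesins (7) -0.25, for spindle genes (22) -0.20 and for regulators (11) -0.42. It was -0.11 for 5 cytokinesis genes and -0.12 for 13 genes of the anaphase-promoting complex and its regulators. The anaphase-promoting complex also works in G1 and is present through the cycle, and a link to its median was not tested.

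The S-phase genes, which copy DNA before G2, were compared as the stage next to this one. Of 51 listed 48 were measured. Their median change was -0.02 at 12 h, -0.31 at 24 h and -0.50 at 36 h, beside -0.06 at 24 h for the 45 G2/M genes. At 24 h 0 of the 48 passed in limma's fit, where 0.489% of all genes fell and 0.32% rose. In the paired fit 4 fell, against 1.54%. At limma's unadjusted p under 0.05, 17 were lower, against 5.86%. In limma's fit 3 fell at 36 h, which were GINS2, GINS3 and RRM2, against 0.89% of all genes. In the mean of 3 times 9 fell, against 2.81%. With 0 higher in both, the shares of all genes were 0.872% and 1.97%. The paired fit called 21 lower at 36 h, against 3.14%, and 27 in the mean, against 6.52%. The array medians of the S-phase genes at 24 h were 0.20 and 0.12 in control cells and -0.07 and -0.23 in miR-135b cells, with no overlap. The difference between the lists was not tested.

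Between 15967 and 17856 of 47323 probes were detected on each array, and replicate arrays correlated at r between 0.9804 and 0.9901. At 24 h the repeats differed in detection. Repeat 1 had 15967 probes in control cells and 15982 in miR-135b cells, and repeat 2 had 17557 and 17856. Median raw intensity was higher in repeat 1 than in repeat 2 in each group. A link to the disagreement of the repeats at 24 h was not tested. Luminal prostate markers were detected on all arrays in 10 of 10 cases, among which the acid phosphatase gene ACP3 fell by 1.05 ± 0.21 at 36 h with limma's adjusted p of 0.0396. STEAP2, another of these, was at -0.30 in the mean of 3 times, with 0.0702 and, in the paired fit, 0.0277. Basal markers were kept in 1 of 4, fibroblast markers in 2 of 8, leukocyte markers in 2 of 6 and endothelial markers in 1 of 4. ACTA2, listed among the fibroblast markers and a contractile gene, rose by 1.84 ± 0.19 at 36 h with an adjusted p of 0.00293. The summed signal of the 2 kept fibroblast markers, ACTA2 and COL1A1, was 190.4 to 217.4 in control cells and 459.3 to 502.2 in miR-135b cells at 36 h, while COL1A2, COL3A1, DCN, LUM, PDGFRB and FAP were detected on 0 arrays.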

How the data were processed

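Total RNA from 12 LNCaP cultures was measured on Illumina bead arrays. Per the file headers, the first deposited table lists 47323 probes with their intensity (linear, not normalized). Beside each intensity the authors deposited a detection p-value. The submitters' processing notes name GenomeStudio 2010.2 and lumi 1.8.3 and give no role for either. A second table the authors deposited holds processed log2 values of the same arrays, in which each of the 12 columns had a median of 6.736. Against log2 of the intensities its slope was 0.9624 to 1.03, so its scale is log2 and it is not centred per gene. No source used here says whether its background was corrected.

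The intensities were background corrected with normexp in limma 3.58.1 (R 4.3.3), with negative controls inferred from the detection p-values and an offset of 16, then quantile normalized and put on the log2 scale. A probe was kept where its detection p was below 0.01 on 2 or more arrays, which left 19161. Names came from the platform annotation, updated through a RefSeq gene table. It gave 30113 probes 1 name, 8 several and 17202 none, and probes with 1 name were used. A gene was represented by its kept probe of highest mean signal. The offset and the background correction both set the size of a fold change of dim probes. The arrays have no depth in counts, so their number limits the precision.

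The 6 group means were fitted by limma's lmFit and eBayes with 6 degrees of freedom left, two-sided tests, Benjamini-Hochberg adjustment over 11238 genes and a threshold of 0.05. Errors are standard errors of the fit. Deviations of treated and control arrays of 1 repeat number from their group means correlated at 0.465, 0.456 and 0.584 at 12, 24 and 36 h, over the limit of 0.1 in 3 of 3, so the numbers were taken to pair the arrays within a time. The paired fit has 3 residual degrees of freedom and gives no contrast between times within a treatment. The files name no slides. The code was tested on simulated data.

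Signals on every array are given for genes past the threshold between treatments in either fit, and in each role for the gene whose probe had the highest mean signal and the gene with the largest change at 36 h. CDCA3 also falls under its role's largest change. Other genes of the pathway are named where they passed in limma's fit at 36 h or in the mean of 3 times. The 45 genes, the other lists and these rules were chosen with earlier results of these data known. Alternatives were no background correction, an offset of 50, median scaling, the authors' processed values, no detection filter, detection on all 12 arrays, the mean of a gene's probes, each probe on its own, both replicate blocks, and leaving out each array.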

Additional observations from a re-analysis of the deposited data

How the results depend on the processing

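The direction at 36 h held in each alternative run: 42 to 45 of 45 genes were below 0, or 63 of 64 probes with each probe on its own, and their median with 1 array left out lay between -0.37 and -0.31. Counts of genes past the threshold depended on the processing, and the cause was not tested. Genes lower at 36 h, 1 in limma's fit, numbered 3 without background correction, with an offset of 50, with the authors' processed values, with detection on all 12 arrays and with the replicate block additive over times. They numbered 6 with the replicate block within each time, and 0 with median scaling, no detection filter, the mean of a gene's probes or each probe on its own. In the mean of 3 times, 2 became 1 with median scaling or the mean of a gene's probes and 7 with the replicate block within each time, and at 24 h, 0 became 2 with that block. Genes that changed from 12 to 36 h in miR-135b cells, 1 at first, numbered 9 without background correction, with the authors' values or with the additive replicate block, 5 with detection on all arrays, 4 with the offset of 50, 2 with the mean of probes, and 0 with median scaling, no filter or each probe on its own. With 1 array left out these counts ranged from 0 to 1 at 36 h, 1 to 2 in the mean and 0 to 0 for the change over time. The KIF23 call in the mean was lost in none of the 12 such fits, with limma's adjusted p from 0.00737 to 0.0298. The 24 h median was 0.029 with median scaling, where the median of all genes was 0.086, and -0.18 to 0.053 with 1 array left out. Small changes that turned sign were AURKB at 24 h (0.029 with median scaling, -0.13 to 0.0038 with 1 array left out), TOP2A at 24 h (-0.066 to 0.12) and FOXM1 from 12 to 36 h in miR-135b cells (-0.43 to 0.28), the turn coming without repeat 1 of miR-135b at 24 h for the first pair and at 36 h for FOXM1. The replicate block changed no other call between treatments among the 45 genes than those given. A slide block was not run, because the files name no slides.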
